A study of Mus musculus with 2 samples.

Results

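The semaphorins, plexins, slits, robos and netrins are the classical ligands and receptors of axon guidance, and their expression was followed here across the cells of a mouse spinal cord sort. Members were every row of the 2 deposited tables whose symbol starts with Sema or Plxn followed by a digit or letter code, is Slit, Robo or Ntn followed by a digit, or starts with Unc5, plus Dcc, and 46 of 24071 rows qualified. They comprised 20 semaphorins, 9 plexins, 3 slits, 4 robos, 2 netrins and 5 netrin receptors (Dcc and Unc5a to Unc5d). The letters of the rule also took in Unc50, which had 68.5 to 131 CPM in all named groups, and Unc5cl, neither of which is a netrin receptor, and Plxna4os1, an RNA from the strand opposite Plxna4.

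Semaphorins are secreted or membrane-bound proteins that signal through plexins, and the secreted class 3 semaphorins usually need a neuropilin co-receptor. Slits are large secreted proteins of the embryonic floor plate and other midline tissue, and they bind Robo receptors on growing axons. Netrins attract axons through Dcc and repel them through the Unc5 receptors. The same families act on blood vessels, where Robo4, Unc5b and Plxnd1 are known as endothelial receptors.

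Gene expression was measured with the 10x 3′ single-cell assay in 1 library of CD133+ non-traced cells and 1 library of CD133+ DNGR-1 traced cells. Both came from the spinal cord of adult C57BL/6j mice of 10 to 12 weeks that carried Clec9a cre/cre and R26 LSLtdTomato/LSLtdTomato, and all cells were sorted as CD45- and CD133+. Cre is driven by Clec9a, the gene of DNGR-1, so that tdTomato marks cells with present or past Clec9a expression and their progeny, and both groups carry the same alleles. The non-traced library held 25411 cells and 233318692 unique molecular identifiers (UMIs, 1 per captured transcript), with a median of 7218 per cell, and the traced library held 4825 cells and 46530507 UMIs, with a median of 8566. The number of cords pooled is not given in the sources used here, and 42 cell barcodes occurred in both libraries.

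Each library was clustered without the member genes, clusters were named from marker lists, and the naming thresholds were set after the data were seen. In the non-traced library 20182 cells were endothelial-like, 1123 ependymal-like, 201 pericyte-like and 83 smooth muscle-like, and 3790 cells were left out. Most of these lay in clusters with markers of more than 1 class, and others in clusters led by genes of blood cells or in an ependymal cluster too small to name. Of the 4825 traced cells, 4713 were ependymal-like and 64 endothelial-like. Levels are summed UMIs of a cell group per 1000000 (CPM) with the exact Poisson 95% interval, which covers counting error only. With 1 library per group there was no replicate check and no test was made. A difference was called past 2-fold on the log2(CPM + 1) scale among genes with a mean of at least 2 CPM over the 2 groups compared.

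Of the 46 members, 32 reached 10 CPM in at least 1 named group of at least 50 cells. The other 14 stayed below, and 5 of them had a measured level below 1 CPM in every such group, namely Dcc, Robo3, Sema3d, Sema4f and Slit1. The smallest groups cannot resolve 1 CPM, since 3 UMIs stand for 4.41 CPM in the 64 traced endothelial-like cells. Dcc, the attractive netrin receptor, was at most 0.403 CPM, on 2 UMIs in the other ependymal cells of the non-traced library. The remaining low members had their highest levels between 1.47 CPM (Unc5a, on 1 UMI in traced endothelial-like cells) and 9.26 CPM (Plxna4os1, capillary-like cells), with Sema3b at 7.78 CPM in the non-traced Anxa8-high ependymal cells introduced below.

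**Figure D1:**
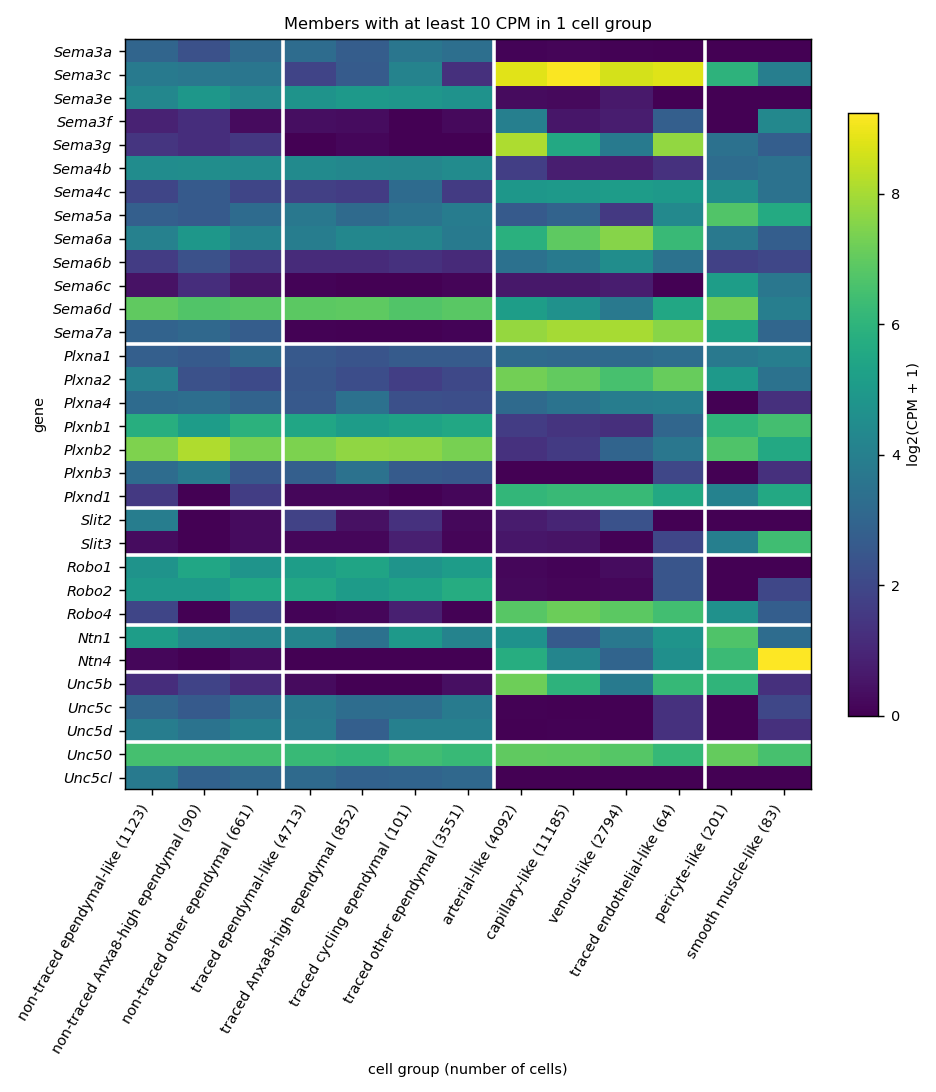
Level of each member that reached 10 CPM (rows, grouped by family) in each cell group (columns, with the number of cells), as log2(CPM + 1) in colour; rows are to be read across groups and not against each other. Plxnb2 and Sema6d were high in all 7 ependymal columns, which give each library as a whole and then its subtypes, Sema3c and Sema7a in the 3 vessel segments and the traced endothelial-like cells, and Ntn4 reached 602 CPM in smooth muscle-like cells.

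The 2 main classes of the sort carried largely separate sets of members. Of the 34 members that passed the filter on low values in the non-traced library, 17 were higher in ependymal-like than in endothelial-like cells, against 28.9% of all genes tested, and 13 were lower, against 18.4%. The median difference was 0.80 on the log2 scale over the members and 0.14 over all 13070 genes tested. Another scaling (edgeR TMM) moved all differences of this comparison by -0.50 on the log2 scale and left 15 members higher and 13 lower.

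Among ligands, Sema6d, a transmembrane semaphorin, had the highest level in the ependymal-like cells, though its level in pericyte-like cells was higher, at 149 CPM. It had 125 CPM in the ependymal-like cells and 24.8 CPM in the endothelial-like cells of the non-traced library, a ratio of 5.06 with an interval of 4.72 to 5.41, and 120 CPM in the traced ependymal-like cells. Sema3e, the ligand of plexin D1, had 18.5 against 0.233 CPM. Sema4b had 21.2 against 1.08 CPM, Sema3a 7 against 0.0739 CPM and Sema4d, the ligand of plexin B1, 6.41 against 0.0170 CPM. In the traced ependymal-like cells Sema3e had 25.8 CPM, Sema4b 20.2 CPM, Sema3a 8.50 CPM and Sema4d 6.97 CPM.

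Among receptors, the B plexins and the robos of the nervous system were higher in the ependymal-like than in the endothelial-like cells. Plxnb1 was not particular to them, since its highest level was in smooth muscle-like cells, with 88.1 CPM. Plxnb2 had 172 CPM in the non-traced and 171 CPM in the traced ependymal-like cells, against 2.74 CPM in endothelial-like cells, and the non-traced levels differed 62.7-fold (interval 56.6 to 69.7). Plxnb1 had 54.3 against 1.74 CPM, and Plxnb3 8.66 against 0.0170 CPM. Robo1 had 25.9 against 0.119 CPM and Robo2 30.3 against 0.114 CPM, whereas Robo4 showed the opposite order with 2.85 against 129 CPM. Of the netrin receptors, Unc5d had 14.0 against 0.0284 CPM and Unc5c 7.36 against 0.0170 CPM, while Unc5b had 1.31 against 73.7 CPM. The remaining members called higher were Unc5cl with 13.1 against 0.0170 CPM, Slit2 with 14.0 against 1.43 CPM, Sema3b with 4.15 against 0.142 CPM, Plxna3 with 3.68 against 0.506 CPM and Ntn1 with 33.9 against 11 CPM. By subtype, a split chosen after seeing the data, the values differed. In the 661 non-traced cells called other ependymal cells below, Slit2 had 0.201 CPM on 1 UMI and Ntn1 17.1 CPM, so that Slit2 was not above its endothelial level and Ntn1 was less than 2-fold above it. In the 90 Anxa8-high ependymal cells, also introduced below, no Slit2 UMI was found and Ntn1 had 19.5 CPM. Over all members, 13 were higher and 13 lower in the other ependymal cells than in the endothelial-like cells, and 14 and 13 in the Anxa8-high cells. The share of all genes is not given for these splits, so the counts cannot be read against it. Plxna1 and Plxna4 were not called, with 5.93 against 7.78 CPM and 8.31 against 10.3 CPM. The ependymal-like and endothelial-like cells thus held different members of the robo and Unc5 families.

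In the endothelial-like cells the ligand Sema3c had 528 CPM and the membrane-anchored Sema7a 245 CPM, against 12.9 and 6.76 CPM in the ependymal-like cells of the same library. Sema6a had 116 against 15.8 CPM, Sema3g 97.1 against 1.66 CPM, Sema4c 31.1 against 2.85 CPM, Ntn4 24.1 against 0.119 CPM, Sema6b 13.6 against 2.14 CPM and Sema3f 3.86 against 0.831 CPM. Among receptors Plxna2 had 127 against 15.7 CPM and Plxnd1 72.7 against 1.90 CPM. Plxna4os1 had 8.4 against 0.237 CPM. The 64 endothelial-like cells of the traced library showed 437 CPM of Sema3c, 191 CPM of Sema7a, 134 CPM of Plxna2 and 85.3 CPM of Robo4, and in these cells 10 ependymal markers stood at 4.48% to 9% of their ependymal level.

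In the ependymal-like cells of the non-traced library the low values of endothelial members were set beside those of endothelial markers. The 8 endothelial markers stood at 1.13% to 3.43% of their endothelial level, none at 0, and 462 of the 1123 cells held UMIs of at least 2 of 4 endothelial markers. Sema3g stood at 1.71%, Unc5b at 1.77%, Robo4 at 2.20%, Sema3c at 2.45%, Plxnd1 at 2.61% and Sema7a at 2.76% of their endothelial level, all inside the range of the markers. Whether this signal came from free RNA or from droplets with more than 1 cell was not tested. Ntn4 was below that range at 0.493%. Sema4c at 9.15%, Plxna2 at 12.3%, Sema6a at 13.7% and Sema6b at 15.7% were above the range. In the other ependymal cells alone, an alternative chosen after seeing the data, where the markers stood at 1.11% to 3.26%, Plxna2 was at 2.54% and inside the range, whereas Sema4c at 9.07%, Sema6b at 13.3% and Sema6a at 13.9% remained above it. In the traced ependymal-like cells, where the markers stood at 0% to 0.105%, Sema6a kept 12.2%, Sema6b 8.82%, Sema4c 7.59% and Plxna2 3.62%, whereas Sema3g, Sema7a and Robo4 stood at 0.0225%, 0.0178% and 0.0506%. Sema3c and Unc5b also stood above the markers there, at smaller shares, Unc5b with 0.219 CPM on 10 UMIs.

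**Figure D2:**
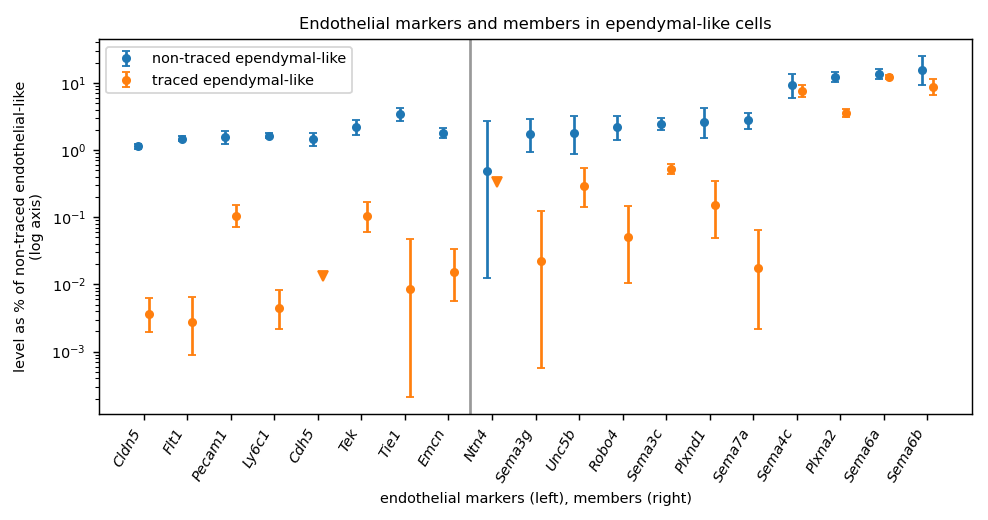
Level of 8 endothelial markers and 11 members in ependymal-like cells of each library as percent of the non-traced endothelial-like level (log axis), with exact Poisson 95% intervals; a triangle is the upper limit where no UMI was found. Sema4c, Plxna2, Sema6a and Sema6b lie above the markers in both libraries as a whole, and the non-traced values of Sema3g, Unc5b, Robo4, Sema3c, Plxnd1 and Sema7a lie within them.

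Of 55 related genes (co-receptors, other guidance ligands and intracellular mediators), 52 were found and 40 tested in this comparison, and 10 were higher and 19 lower in the ependymal-like cells. Nrp1, the co-receptor of class 3 semaphorins, had 3.32 against 214 CPM, and Kdr, a VEGF receptor, 29.3 against 504 CPM. Rgma, a ligand of the netrin receptor neogenin, had 91.1 against 0.386 CPM, and Srgap3, a slit and robo mediator, 76.2 against 0.222 CPM. Sdc2, a proteoglycan, had 239 against 1.64 CPM.

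Among the ependymal-like cells, an Anxa8-high subtype was named from its markers Anxa8, Sncg and Pvalb. Anxa8 had 35.0 CPM in it against 1.04 CPM in the other ependymal-like cells of the non-traced library, and 47.1 against 2.39 CPM in the traced library. The subtype held 90 of 1123 ependymal-like cells in the non-traced library (8.01%, exact binomial interval 6.49% to 9.76%) and, among the 4713 traced ones, 852 cells (18.1%, 17.0% to 19.2%). A non-traced cluster of 712 cells with both ependymal and endothelial markers was left out, so the shares cover only the cells kept as ependymal-like. A cycling subtype of 101 cells (2.14%) was named in the traced library. A subtype of 1 cluster with fewer than 50 cells was not named, so that a smaller number of cycling cells in the non-traced library would have gone unnamed, and no share is given for it. Mki67 and Top2a, genes of dividing cells, had 0.949 and 4.39 CPM in the non-traced and 11.9 and 14.3 CPM in the traced ependymal-like cells. Of the cells in neither subtype, 661 non-traced and 3551 traced cells form the group called other ependymal cells.

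The Anxa8-high cells differed from the others in few members. In the traced library 2 of 25 members tested were higher than in the other ependymal-like cells, against 1.07% of all genes, and 1 was lower, against 1.1%. Plxna4 had 9.89 against 3.84 CPM, Sema3c 5.33 against 2.12 CPM and Unc5d 5.89 against 15.0 CPM. In the non-traced library 0 of 28 members were higher, against 3.95%, and 2 were lower, against 5.94%, so both counts were near those shares. The 2 lower members were Slit2, with no UMI against 15.4 CPM (at least 3.96-fold lower, computed against 3 UMIs in the group), and Plxna2, with 3.89 against 16.8 CPM. In the other ependymal cells alone Slit2 had 0.201 CPM and Plxna2 3.22 CPM.

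Plxnb2 was higher in the Anxa8-high cells of both libraries without passing 2-fold, with 282 CPM (245 to 322) against 161 CPM in the non-traced and 209 CPM (200 to 219) against 162 CPM in the traced library. Robo1 had 42.8 against 24.2 CPM and 41.2 against 32.1 CPM. Of the related genes Ablim1, an actin-binding protein, was called in both libraries, with 219 against 88.0 CPM and 166 against 72.4 CPM, and a further 6 were lower in the non-traced Anxa8-high cells.

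In the 101 cycling cells of the traced library 2 of 26 members were higher, against 8.07% of all genes, and 0 were lower, against 1.89%. The number of higher members was thus near the share of all genes. Sema3c had 16.6 CPM (10.4 to 25.1) against 2.34 CPM and Sema4c 8.31 CPM (4.15 to 14.9) against 2.18 CPM, on 22 and 11 UMIs. Their endothelial markers summed to 0 CPM. Ntn1 had 31.0 CPM in these cells. Another scaling (TMM) moved the differences of this comparison by -0.15 on the log2 scale, and both calls remained.

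**Figure D3:**
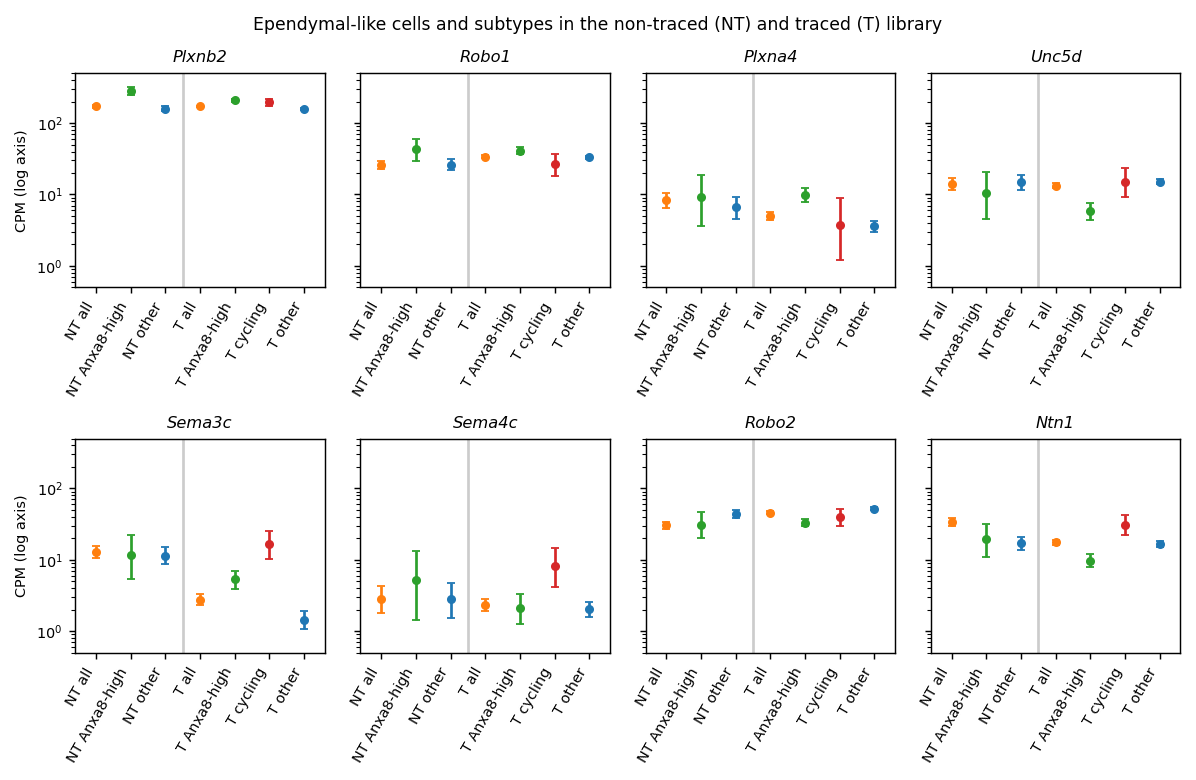
Level in CPM (log axis) of 8 members in the ependymal-like cells of the non-traced (NT) and traced (T) library, as a whole (all) and by subtype, with exact Poisson 95% intervals. Plxnb2 and Robo1 are highest in the Anxa8-high cells of both libraries, Unc5d is lowest in the traced Anxa8-high cells, and Sema3c and Sema4c are highest in the cycling cells.

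Between the libraries, most members of the ependymal-like cells were not called, but the share called lower was above that of all genes. Of 27 members tested, 0 were higher in the traced than in the non-traced ependymal-like cells, against 0.91% of all genes, and 4 were lower, against 2.04%. Tracing and library cannot be told apart. Slit2 had 2.51 CPM in the traced and 14.0 CPM in the non-traced cells (5.57-fold, interval 4.27 to 7.27), and Plxna2 4.59 and 15.7 CPM (3.41-fold, 2.72 to 4.26). Within the other ependymal cells alone, an alternative chosen after seeing the data, Slit2 had 0.150 and 0.201 CPM and Plxna2 3.04 and 3.22 CPM. There 0 of 26 members tested were higher, against 0.722% of all genes, and 2 were lower, against 1.46%.

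Sema3c had 2.75 CPM in the traced and 12.9 CPM in the non-traced ependymal-like cells and Sema7a 0.0437 and 6.76 CPM. Both stood, in the non-traced cells, within the range of the endothelial markers given above, and these markers summed to 1.75 CPM in the traced and 275 CPM in the non-traced ependymal-like cells. Leaving out the ependymal-like cells with UMIs of at least 2 of 4 endothelial markers gave 2 members higher and 4 lower, with no share of all genes to set beside them. In the other ependymal cells alone both were still called, Sema3c with 1.44 against 11.5 CPM and Sema7a with 0.0601 against 5.64 CPM, and the endothelial markers summed to 2.04 and 276 CPM there. In the Anxa8-high cells alone 1 of 27 members was higher in the traced library, against 4.28% of all genes, and 3 were lower, against 4.11%. Plxnc1, a plexin that binds Sema7a, had 6.66 against 2.59 CPM there, on 60 and 2 UMIs. Robo2 had 45.8 CPM in the traced and 30.3 CPM in the non-traced ependymal-like cells, and 51.6 and 44.1 CPM in the other ependymal cells alone. Members such as Plxnb2, Sema6d, Sema4b, Unc5d, Robo1 and Sema6a differed by less than 2-fold between the libraries. Of the related genes 0 were higher and 1, Plxdc2, was lower, with 14.6 against 30.5 CPM.

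Vessel segments were compared within the non-traced library, where 4092 endothelial-like cells were arterial-like, 11185 capillary-like and 2794 venous-like, and 2111 lay between segments. Of the 19 members tested, 5 were higher in arterial-like than in capillary-like cells, against 3.62% of all genes, and 1 was lower, against 1.22%. Of 20 tested, 3 were higher in venous-like than in capillary-like cells, against 1.54%, and 4 were lower, against 0.578%. Of 21 tested, 6 were higher in arterial-like than in venous-like cells, against 4.2%, and 4 were lower, against 2.79%. The capillary-like cells serve in 2 of these comparisons, which are therefore not independent.

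The ligand Sema3g was highest in arterial-like, intermediate in capillary-like and lowest in venous-like cells. It had 273 CPM (268 to 278), 46.4 CPM (45.0 to 47.9) and 12.5 CPM (11.3 to 13.8), so that arterial-like cells were 21.8-fold (19.7 to 24.2) above venous-like cells. It was found in 83.4% of arterial-like and 8.98% of venous-like cells, and in 23.0% and 0.752% after thinning to 1000 UMIs. The netrin receptor Unc5b followed the same order, with 145, 62.2 and 12.9 CPM, and so did the ligand Ntn4 of the vessel wall, with 53.4, 17.7 and 6.81 CPM. The intervals of the 3 segments did not overlap for these genes, but they cover counting error only. How many of all genes would separate in this way was not counted. The order is that of the pooled segments, whose clusters varied, as given below.

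For these 3 members, chosen for their common order over the segments, the 250 bases before their RefSeq gene starts are given as reference sequence (RefSeq, GRCm38.p6). RefSeq promoters were found for 36 of the 46 members. The windows are chr14:31217623-31217872 for Sema3g (plus strand), chr10:93640799-93641048 for Ntn4 (plus strand) and chr10:60831582-60831831 for Unc5b (minus strand). In another annotation (GENCODE, GRCm38), Ntn4 starts at chr10:93640681, so that its whole window lies inside the gene. Sema3g starts there at chr14:31217860, within its window, whereas the Unc5b start at chr10:60831581 adjoins its window. Capitals mark matches, on either strand, to any of 4 short motifs, and adjoining or overlapping matches run together. The motif of the TATA box was searched as TATAAA and occurred in 12.4% of all 32851 RefSeq windows of this length. The GC box, searched as GGGCGG, occurred in 32.7% of them. The SOX core was searched as ACAAT and held by 27.7%, and for RBPJ, the Notch effector, the search with TGGGAA found 21.6%.
Sema3g: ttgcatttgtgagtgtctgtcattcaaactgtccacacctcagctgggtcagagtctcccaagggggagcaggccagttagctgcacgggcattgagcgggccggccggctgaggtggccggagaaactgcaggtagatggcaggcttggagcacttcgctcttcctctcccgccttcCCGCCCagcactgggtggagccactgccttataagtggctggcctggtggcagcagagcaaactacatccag
Ntn4: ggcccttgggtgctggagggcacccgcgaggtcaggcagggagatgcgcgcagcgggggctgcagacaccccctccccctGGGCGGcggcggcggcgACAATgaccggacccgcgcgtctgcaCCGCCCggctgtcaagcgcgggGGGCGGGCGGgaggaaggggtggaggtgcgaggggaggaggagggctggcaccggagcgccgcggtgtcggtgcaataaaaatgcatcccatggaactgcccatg
Unc5b: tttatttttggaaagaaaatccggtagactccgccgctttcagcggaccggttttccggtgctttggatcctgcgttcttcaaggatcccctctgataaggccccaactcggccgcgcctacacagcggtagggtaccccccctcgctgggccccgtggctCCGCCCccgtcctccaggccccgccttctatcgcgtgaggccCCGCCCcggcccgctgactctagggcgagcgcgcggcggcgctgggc
All 3 windows held the GC box letters, with 4 matches for Ntn4, 2 for Unc5b and 1 for Sema3g, and the SOX core occurred in the Ntn4 window. The exact letters TATAAA and TGGGAA were not matched in them. Variants, such as the letters TATAAG in the Sema3g window, were not searched. A match is a description of the letters and not of a bound site.

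Sema3f was highest in the arterial-like cells among the segments, with 15.0 CPM (13.8 to 16.2) against 0.476 CPM in capillary-like and 0.684 CPM in venous-like cells, and smooth muscle-like cells had 18.8 CPM. Ntn1 had 25.1 CPM in arterial-like, 5.16 CPM in capillary-like and 12.1 CPM in venous-like cells, so that it was lowest in the capillary-like cells. Sema6a, a transmembrane semaphorin and ligand of A plexins, had the opposite order to Sema3g, with 57.0 CPM (54.7 to 59.4), 121 CPM (119 to 123) and 187 CPM (183 to 192). Sema6b had 9.88, 12.9 and 21.8 CPM and was called between arterial-like and venous-like cells.

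The venous-like cells also had more Plxnb2 (6.90 against 1.96 CPM in capillary-like and 1.46 CPM in arterial-like cells) and more Slit2 (4.04 against 0.952 and 0.644 CPM). Sema5a had 1.86 CPM in venous-like, 6.68 CPM in capillary-like and 5.08 CPM in arterial-like cells, and Sema6d 12.2 CPM in venous-like against 34.0 CPM in arterial-like cells. The abundant endothelial members varied less, since Sema3c had 449, 577 and 400 CPM from arterial-like to venous-like cells, Sema7a 217, 255 and 257 CPM, Robo4 113, 142 and 119 CPM, Plxna2 154, 129 and 92.6 CPM and Plxnd1 68.0, 75.3 and 73.2 CPM. In the cells between segments Sema3c had 715 CPM and Sema4c 41.7 CPM, the highest level of each in any named group. The ependymal markers summed to 13.5, 14.4 and 11.5 CPM and the pericyte markers to 376, 449 and 279 CPM in the 3 segments.

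The segments were not uniform. Among the arterial-like clusters, that led by Cytl1 and Mgp (537 cells) had 376 CPM of Sema3g, 58.8 CPM of Ntn1 and 41.9 CPM of Sema3f, that led by Pi16 (590 cells) had 86.3 CPM of Ntn4 and 61.9 CPM of Sema6d, and that led by Igfbp3 (2965 cells) had 163 CPM of Unc5b. Sema3c was lower in the first of these clusters, at 166 CPM, than in the third, at 530 CPM. Among the capillary-like clusters, Sema3g ranged from 7.98 to 94.3 CPM and Unc5b from 22.5 to 107 CPM, and Sema6a from 65.5 to 141 CPM. Of the venous-like clusters, the small one led by Lrg1 and Ackr1 (158 cells) had 38.1 CPM of Plxnb2, 33.4 CPM of Plxna4, 22.6 CPM of Ntn1 and 17.3 CPM of Slit2. The larger one led by Cyp2e1 (2636 cells) had 5.18, 13.1, 11.5 and 3.31 CPM of these genes.

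**Figure D4:**
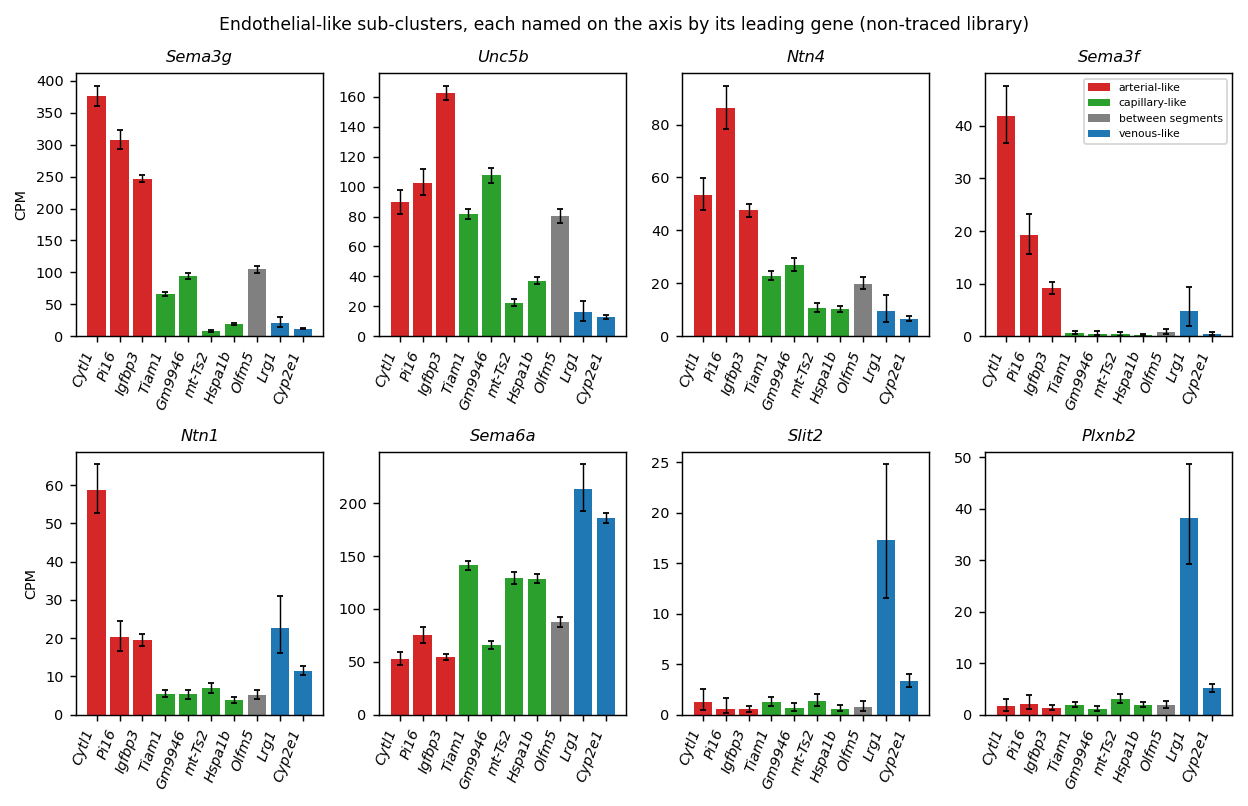
Level in CPM of 8 members in each endothelial-like sub-cluster of the non-traced library, named on the horizontal axis by its leading gene and coloured by segment; bars are summed UMIs in CPM and lines exact Poisson 95% intervals. Sema3g and Ntn4 are higher in each arterial-like cluster than in each capillary-like or venous-like one, Sema6a is highest in the venous-like clusters, and Slit2 and Plxnb2 peak in the Lrg1-led venous-like cluster.

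Of the related genes 35 were tested between arterial-like and capillary-like cells, with 3 higher and 2 lower, and 32 between venous-like and capillary-like cells, with 4 higher and 0 lower. Between arterial-like and venous-like cells 4 were higher and 3 lower of 35. Nrp2, the neuropilin of veins and lymphatics, had 14.1 CPM in arterial-like, 48.8 CPM in capillary-like and 155 CPM in venous-like cells. Flrt2, a ligand of Unc5 receptors, had 12.5, 45.0 and 157 CPM, the reverse of the order of Unc5b.

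The mural cells of the vessel wall had a further set of members. Of 24 members tested, 9 were higher in the 284 mural-like than in the endothelial-like cells, against 17.2% of all genes, and 11 were lower, against 14.6%. Another scaling (TMM) moved the differences by -0.18 on the log2 scale and gave 9 and 12. Ntn4, a laminin-related netrin, had 602 CPM in smooth muscle-like and 77.0 CPM in pericyte-like cells, against 24.1 CPM in endothelial-like cells. Slit3 had 83.8 and 14.7 CPM against 0.341 CPM. No Slit2 UMI was found in the mural-like cells, where 3 UMIs stand for 1.99 CPM, more than the endothelial level of 1.43 CPM.

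Pericyte-like cells led for several members. Ntn1 had 101 CPM in pericyte-like and 8.66 CPM in smooth muscle-like cells, Sema6d 149 and 14.4 CPM, Sema5a 106 and 49.1 CPM, Plxnb2 101 and 46.2 CPM, and Sema6c 34.2 and 11.6 CPM. Plxnb1 had 64.8 and 88.1 CPM, against 1.74 CPM in endothelial-like cells. Sema4b had 9.27 CPM over both, against 1.08 CPM.

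The members lower in the mural-like cells were those of the endothelium, such as Sema3c with 39.7 against 528 CPM. Unc5b was called with 35.7 against 73.7 CPM, but it had 64.8 CPM (48.5 to 84.7) in pericyte-like and 1.44 CPM, on 1 UMI, in smooth muscle-like cells. Its difference on the log2 scale was -1.02, and -0.57 with the mean of CPM per cell, where the call was lost. Sema7a had 24.5 CPM, Plxna2 21.2 CPM, Plxnd1 29.8 CPM, Robo4 15.9 CPM, Sema6a 9.27 CPM, Sema3g 7.94 CPM and Sema6b 2.65 CPM, and Plxna4 and Plxna4os1 had 1 UMI each. The 8 endothelial markers stood at 8.15% to 30.4% of their endothelial level in the pericyte-like cells and at 2.36% to 5.22% in the smooth muscle-like cells. Haemoglobin genes led the pericyte-like cluster, whose median was 4005 UMIs per cell, and 10 ependymal markers summed to 799 CPM in it. By the rule of at least 2 of 4 endothelial markers, 138 of the 201 pericyte-like and 56 of the 83 smooth muscle-like cells were mixed droplets. Without them 10 members were higher and 11 lower, with no share of all genes to set beside them. Of 40 related genes tested, 13 were higher and 11 lower, with Plxdc1 at 105 against 0.597 CPM and Mical2, an actin-modifying enzyme, at 43.0 against 0.0852 CPM.

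**Figure D5:**
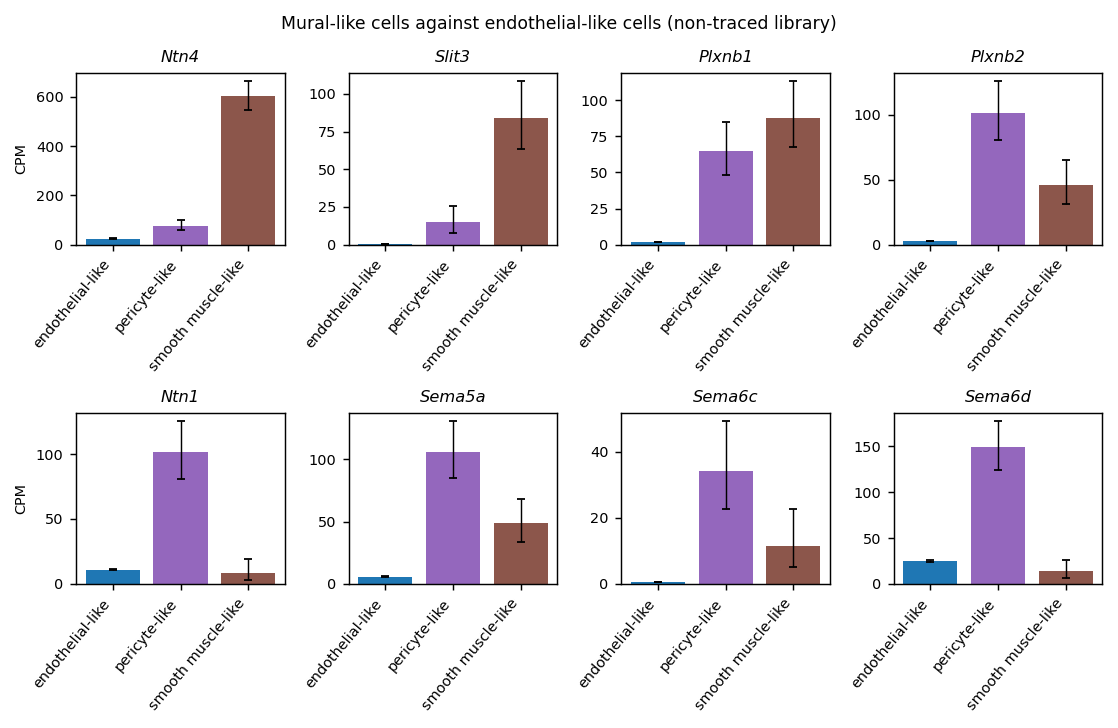
Level in CPM of 8 members in the endothelial-like (20182), pericyte-like (201) and smooth muscle-like (83) cells of the non-traced library, as bars of summed UMIs in CPM with exact Poisson 95% intervals. Ntn4 and Slit3 are highest in smooth muscle-like cells, and Ntn1, Sema5a, Sema6c, Sema6d and Plxnb2 in pericyte-like cells.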

How the data were processed

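Gene expression was measured in 2 libraries, 1 of CD133+ non-traced and 1 of CD133+ DNGR-1 traced cells. The authors deposited raw UMI counts per gene and cell, which are not normalised. Per the submitters' processing notes they used Cell Ranger 3.0.2, STAR 2.5.1b, R 3.6.0 and Seurat 3 with the mm10 build. All columns of both tables were used.

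From the deposited counts, each library was clustered on its own in Seurat 5.3.0 (R 4.3.3) on 2000 variable features without the members, 20 components and resolution 0.8. Clusters with markers of more than 1 class were left out and no doublet caller was run. Counts were summed per cell group and given per 1000000 (CPM), with exact Poisson 95% intervals. Genes with a mean of at least 2 CPM over both groups were compared as differences of log2(CPM + 1), and a difference past 2-fold was called. Ratios carry exact conditional binomial intervals, and groups at 0 were set to 3 counts. Shares of cells were also taken after thinning to 1000 UMIs, with Clopper-Pearson intervals. All intervals cover counting error only. With 1 library per group no test was made, and cells of a library are not replicates. TMM factors came from edgeR 4.0.16. The calculation was tested on simulated data.

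All members were accounted for, members of at least 10 CPM in a named group of at least 50 cells were described by level, called members were named, and of the related genes counts and a few of the largest differences were given. The members and lists were chosen with earlier results of these data known. Alternatives covered resolution, features, integration, mixed droplets, depth, cell weights, pseudocount, filters and scaling. A further ependymal subtype is not reported here, and its cells stay in the ependymal-like totals and among the cells that each subtype was compared with.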

Additional observations from a re-analysis of the deposited data

Results flagged for a closer look

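For 1 member the subtype difference pointed in opposite directions in the 2 libraries. Sema3c, on the log2(CPM + 1) scale, differed between Anxa8-high and other ependymal-like cells by 1.02 in the traced and by -0.15 in the non-traced library. The difference between the libraries was not tested, since each value rests on 1 library.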

How the results depend on the processing

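The counts of called members stayed within 1.5 times under integration of both libraries, which was not run for the 3 comparisons of vessel segments, and in all comparisons under a limit on mitochondrial UMIs, TMM scaling, 0.5 times the resolution and members among the clustering features. In the traced Anxa8-high cells 3 members became 1 at 1.5 times the resolution, 6 with cells thinned to 1000 UMIs and 0 with a pseudocount of 5. In the non-traced Anxa8-high cells 2 became 9 with mixed droplets left out, 20 thinned, 5 with the mean of CPM per cell, 4 with a pseudocount of 0.1 and 4 with no filter on low values. Thinning gave 13 calls in the cycling comparison (2 before), which had 4 with a pseudocount of 0.1 and 1 with a pseudocount of 5. A pseudocount of 5 left 2 of 7 calls between venous-like and capillary-like cells and 6 of 10 between arterial-like and venous-like cells. With no filter, 7 members were lower in the traced ependymal-like cells in place of 4. In 2 alternatives chosen after seeing the data, the traced and non-traced libraries were compared within other ependymal cells alone, with 2 calls, and within Anxa8-high cells alone, with 4. Apart from these 2, shares of all genes called are not given for the alternatives. The sign turned for Sema3c in the traced Anxa8-high cells when thinned (-0.20), and for Slit2 between the libraries in the Anxa8-high cells alone (0.41, on 3 UMIs and none). Against the endothelial-like cells it turned for Slit2 in the other ependymal cells alone (-1.02, on 1 UMI). The same held in the non-traced Anxa8-high cells alone (-1.28, on no UMI), where 3 UMIs stand for 3.89 CPM. As Slit2 had 1.43 CPM in the endothelial-like cells, that last sign cannot be read. The cause of these changes was not tested. Depth limits the groups of 83 to 101 cells, where 3 UMIs stand for 2.27 to 4.33 CPM. Naming a subtype per cell in place of per cluster was not run. No paired analysis was possible because each group has 1 library.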
